A study of Mus musculus with 7 samples.

Results

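The genes described here are 49 genes of DNA replication and S phase, taken by symbol from textbook knowledge of the replication machinery. They were 49 of the 48795 mouse genes in the deposited table, and all 49 passed the filter on low values, so 49 of 49 were tested. Bulk RNA sequencing had been done on splenic memory B cells (MBCs, 3 libraries) and plasma cells (PCs, 4 libraries), which are the outcomes of a B cell response that the comparison sets against each other. All cells came from female C57BL/6 mice of wild type genotype, 8-12 weeks old, 10 d after an intravenous injection of sheep red blood cells, an antigen that needs T cell help. MBCs were sorted as B220+, CD138-, IgD-, CD38+ and CD273+ cells. PCs were sorted as B220-low, CD138+ and IgD- cells, CD138 being the product of Sdc1. All samples were first passed over magnetic beads against CD43, a surface protein that many PCs carry. The labels do not say whether the libraries came from separate mice, so the p-values below measure the spread between these libraries, which may be partly technical. In bulk samples, fewer cycling cells and less RNA of a gene per cell cannot be told apart.

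Before S phase, the origin recognition complex, CDC6 and CDT1 load the ring-shaped MCM2-7 helicase onto origins, and geminin, the product of Gmnn, blocks reloading. Kinases, MCM10, CDC45 and the GINS complex then switch the helicase on, primase and the polymerases copy the strands with the sliding clamp PCNA, and FEN1 and LIG1 join the lagging-strand fragments. Many of these genes are transcribed at the G1/S transition under E2F factors, so their transcripts are markers of cycling cells, which among B cells are abundant in germinal centers (GCs) and among plasmablasts, while resting MBCs are largely out of cycle.

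Promoters of the genes were searched for the letters usually bound by E2F factors, because that is the transcription factor family most tied to this gene set. RefSeq promoter windows (250 bases before to 50 after a gene's start, GRCm38.p6) were matched by symbol for 40 of the 49 genes and were not used for the other 9. The letters searched were TTTGGCGC, TTTGCCGC, TTTCGCGC and TTTCCCGC, on both strands and with overlapping matches counted. They stood in the windows of 15 of the 40 genes (37.5%), against 704 of 27025 genes with a window (2.6%) and 5.1% of the tested genes with a window. The median GC content was 61.8% in the windows of these genes and 52.7% in all windows, with a median of 24 and 7 CG pairs, and each E2F letter string holds such pairs. The letters CCAAT, bound by NF-Y, stood in 24 of the 40 (60%) and in 41.1% of all genes. The stretches that lie before the start are shown for the licensing, helicase, clamp loader and polymerase genes, in RefSeq sequence on the strand of the gene, with the matched letters in capitals. A match is a description of letters, not of a bound site.
Orc1: cggttagtgGCGCGAAAagttttctc
Cdc6: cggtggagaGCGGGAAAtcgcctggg
Mcm5: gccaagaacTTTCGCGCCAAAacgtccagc
Mcm6: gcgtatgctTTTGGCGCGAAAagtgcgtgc
Mcm6, nearer to the start: ttggacgggTTTGGCGCgaagtagct
Mcm7: tttcgaaccGCGGGAAAcagggtgtc
Gins3: gagtgcggcGCGGGAAAgcgagtttg
Rfc3: gtcgcacgcTTTCGCGCtc
Pola1: catcacaggGCGCCAAAtgcactccc

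These stretches lie at chr4:108579418-108579443 (plus strand) for Orc1, chr11:98908004-98908029 (plus) for Cdc6, chr8:75109347-75109376 (plus) for Mcm5 and chr8:95633509-95633534 (plus) for Gins3. On the minus strand they lie at chr1:128359795-128359824 and chr1:128359736-128359761 for Mcm6, chr5:138172032-138172057 for Mcm7, chr5:151651209-151651227 for Rfc3 and chrX:93632277-93632302 for Pola1. In Mcm5 and in the distal stretch of Mcm6, 2 matches on opposite strands overlap. The 15 genes with E2F letters had a median log2 fold change (PC minus MBC, all libraries) of 0.33 and the 25 genes without them one of 0.59, and MBC replicate 3 was the highest of the 7 libraries in 9 of the 15 and 14 of the 25.

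Libraries stood apart before any comparison was made. Values are scaled TPM, that is deposited TPM (transcript abundances per length, scaled to a fixed library total) divided by a factor for each library, because immunoglobulin transcripts took 49.4 to 55.9% of the TPM in PCs and 1.65 to 3.16% in MBCs. By an estimate from the low values, 1 TPM of a 1 kb transcript stood for 6.3, 6.98 and 11.6 reads in MBC replicates 1 to 3 and for 9.43 to 16.6 reads in PCs. The floor of 3 such reads lay at 0.262, 0.29 and 0.126 scaled TPM in the MBC libraries and at 0.252 to 0.392 in PCs, and it covers counting error only. MBC replicate 3 was below both other MBC libraries in 5 of 6 markers of the sort and of memory cells, and above them in 1 (Nt5e, at 5.26 scaled TPM against 5.17 and 4.58). Of the sort markers, Cd38 was at 6.77 scaled TPM there against 130 and 186 in the other MBC libraries, and Pdcd1lg2 (CD273) at 2.59 against 43.3 and 24.4. Ccr6, a memory marker outside the sort, was at 2.26 against 108 and 136. The list summed to 1267, 1894 and 546 in the MBC libraries and 286 to 342 in PCs. Most of each sum was Ptprc, at 970, 1526 and 529 in MBCs and 262 to 315 in PCs. In MBC replicate 3, Cd38 and Cd80 were below all PCs and Pdcd1lg2 and Ccr6 inside the PC range. Nt5e was above that range there. PC markers were far below PCs there too: the 6 of the list summed to 189, 149 and 294 scaled TPM in the MBC libraries and to 9613 to 16540 in PCs. Sdc1 was at 0.0585 scaled TPM in MBC replicate 3, at 0 in the other MBC libraries and at 49.6 to 78.1 in PCs. MBC replicate 3 was above both other MBC libraries in 3 of the 6 and below both in 2 (Xbp1 and Irf4). Jchain was at 137 there against 70.7 and 62.2, and 7626 to 13200 in PCs. Mzb1 was at 108 against 20.1 and 18.7, and 871 to 1966 in PCs. All 6 of 6 GC B cell markers (Bcl6, Mybl1, S1pr2, Fas, Gcsam and Rgs13) were highest in MBC replicate 3. They summed to 236, 257 and 589 scaled TPM in the MBC libraries, against 65 to 125 in PCs. The largest part of each sum was Mybl1, at 165, 197 and 336 in MBCs and 25.8 to 69.3 in PCs. MBC replicate 2 held 3214 scaled TPM of erythroid markers, against 3.41 and 50.8 in the other MBC libraries and at most 102 in PCs, nearly all of it globin RNA, with Klf1 and Gata1 at 0. T cell markers summed to at most 25 in MBCs and 58.3 in PCs, myeloid markers to at most 40.2 and 31, and platelet markers to at most 4.58 and 1.17. Because of these differences each library is shown, and the results that rest on MBC replicate 3 are given with and without it.

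By the median gene on scaled TPM, the replication genes were lowest in MBC replicates 1 and 2, intermediate in PCs and highest in MBC replicate 3, whereas by their share of the TPM as deposited MBC replicate 2 was above all PCs. Summed over the 49 genes the scaled TPM was 526 in MBC replicate 1, 1057 in MBC replicate 2 and 2176 in MBC replicate 3. In PC replicates 1 to 4 the sum was 929, 1190, 1197 and 1474 scaled TPM. The PC sums therefore lay between those of MBC replicate 1 and MBC replicate 3, and the groups overlapped. The level of the median gene was 5.39, 10.8 and 32 scaled TPM in the MBC libraries and 14.1, 15, 18.9 and 20.1 in the PC libraries. As a share of the deposited TPM without immunoglobulin genes the 49 genes took 0.099, 0.161 and 0.454% in MBCs and 0.134, 0.171, 0.199 and 0.209% in PCs, with MBC replicate 3 at the top and MBC replicate 2 above PC replicate 1, as in the scaled sums. As a share of all deposited TPM they took 0.0959, 0.157 and 0.447% in MBCs and 0.0591 to 0.106% in PCs. The place of MBC replicates 1 and 2 relative to PCs thus depends on the treatment of the immunoglobulin share, and the place of MBC replicate 3 at the top does not. In MBC replicates 1 and 2, 5 and 4 of the 49 genes were listed at 0, and 8 in each were at or under the floor, while none of the 49 was at or under the floor in MBC replicate 3 or in any PC library.

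**Figure D1:**
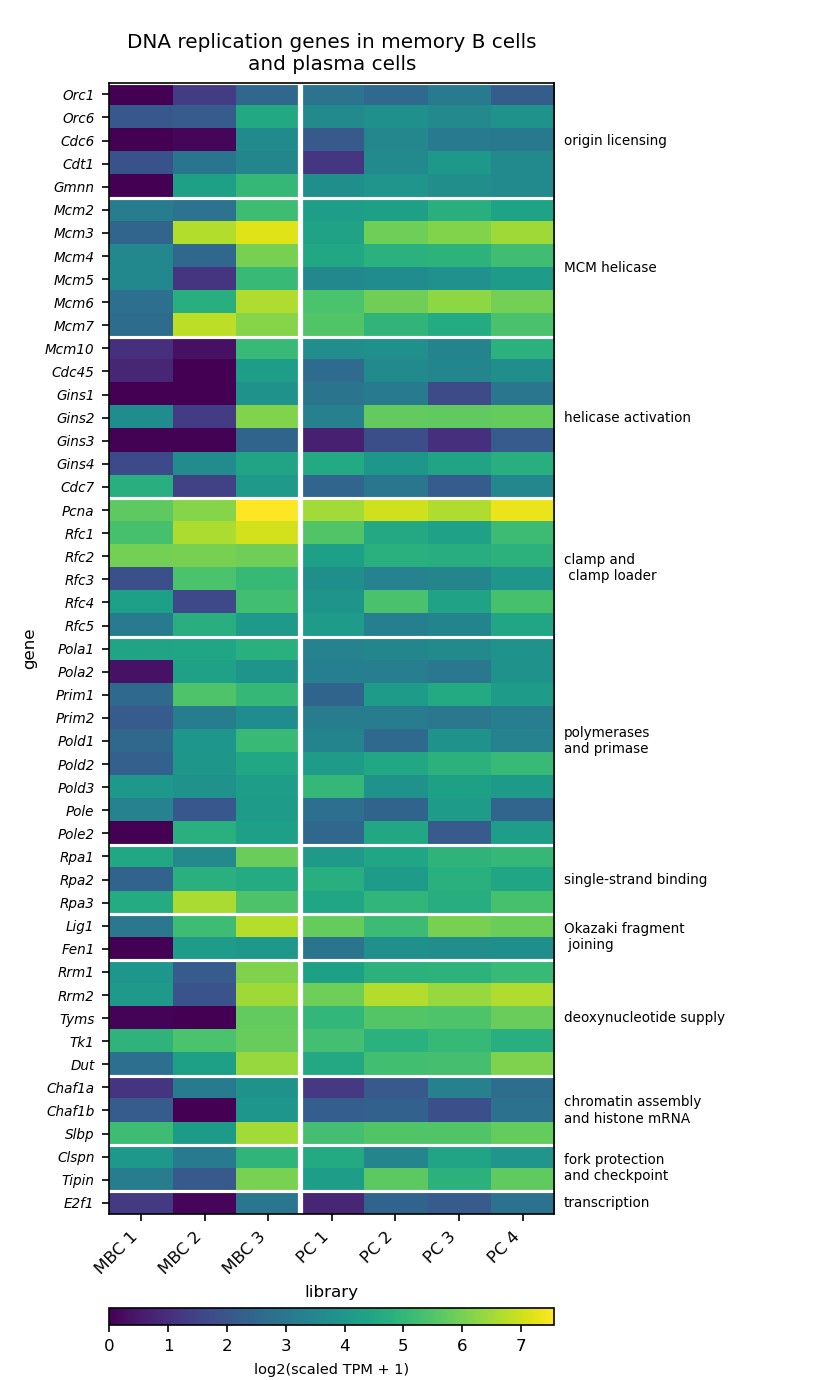
Level of each of the 49 genes (rows, grouped by role) in each library (columns, 3 MBC and 4 PC), as log2(scaled TPM + 1) by color. The MBC replicate 3 column is the highest of the 7 in 29 of 49 genes, and MBC replicates 1 and 2 are dark in different rows.

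With all 7 libraries, 0 of the 49 genes were called higher in PCs, where 6.41% of all tested genes were, and 1 of 49 was called lower, where 2.14% were (limma on log2(scaled TPM + 1), Benjamini-Hochberg adjusted p under 0.05 over all 11573 tested genes, and a log2 fold change of 1 or more in size). At an unadjusted p under 0.05 there were 5 of the 49 (10.2%), beside 24.2% of all tested genes, and limma without the mean-variance trend called 0 in either direction. The median log2 fold change of the 49 genes was 0.53, beside 0.14 over all tested genes. It was positive in 35 of 49, beside 6419 of all 11573 tested genes. The median was -0.01 without MBC replicate 1 and -0.61 with TPM as deposited, where the median of all tested genes was -0.91.

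The called gene was Rfc2, a small subunit of replication factor C, the loader that opens PCNA and places it on primed DNA. Rfc2 (chr5:134581366-134601805, GRCm38, plus strand) was at 62.3, 63.7 and 59.2 scaled TPM in the MBC libraries and at 18.5, 27.1, 25.4 and 27.9 in the PC libraries. The groups did not overlap, and MBC replicate 3 was like the other MBC libraries. MBCs had a mean of 61.7 ± 2.29 scaled TPM (SD, n = 3) and PCs one of 24.7 ± 4.31 (SD, n = 4), with a log2 fold change of -1.302 with all libraries (SE 0.32, limma adjusted p = 0.0368). The adjusted p was 0.0563 without MBC replicate 2, 0.0671 without MBC replicate 1 and 0.0904 to 0.106 without any 1 of the PC libraries, with log2 fold changes between -1.16 and -1.37. The exons of Rfc2 overlap those of Lat2, an adaptor of B cell signaling on the opposite strand, and how the reads were counted by strand is not stated. Lat2 was at 45.3, 50.5 and 42.9 scaled TPM in MBCs and 41.2, 17.9, 31 and 21.1 in PCs (log2 fold change -0.78, limma adjusted p = 0.247), and its part in the Rfc2 value was not tested.

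Without MBC replicate 3, 12 of 48 tested genes were called higher in PCs (15.1% of all tested genes were), and 1 of 48, again Rfc2, was called lower (8.2% of all). The 12 were Orc1, Orc6 and Cdc6 of origin licensing, Mcm2, Mcm4 and Mcm6 of the helicase, Mcm10, Cdc45 and Gins1 of helicase activation, Rrm2 and Tyms of deoxynucleotide supply, and Tipin of fork protection. None of the 9 polymerase and primase genes, the 3 single-strand binding genes or the 6 clamp and clamp loader genes was called higher, with 1, 0 and 2 of them at an unadjusted p under 0.05 in limma, nor was any of the 2 fragment joining genes, the 3 chromatin genes or E2f1, with 1, 0 and 0. In that fit 37.6% of all tested genes had such an unadjusted p, and Gins3 fell under the filter. The median log2 fold change of the 48 was 1.16, beside 0.21 over all tested genes. It was positive in 39 of 48, beside 6040 of all 10748 genes tested in that fit. Gins1 was at 0 in both remaining MBC libraries, so its fold has no value, and its mean in PCs of 5.88 scaled TPM is at least 20.3-fold higher than the 3-read floor of a 1 kb transcript in a library. With Gins1 set at that bound the median of the 48 stayed 1.16. The alternative without MBC replicate 3 leaves 2 MBC libraries, the shallowest by reads at a given TPM. MBC replicate 3 and PC replicate 4 also share a title prefix and a code that the other libraries do not carry. Among the libraries with the more frequent prefix (MBC replicates 1 and 2, PC replicates 1 to 3) 6 of 48 genes were called higher, namely Cdc6, Mcm10, Cdc45, Gins1, Rrm2 and Tyms (9.89% of all tested genes were), and 0 were called lower (4.37% of all were). At an unadjusted p under 0.05 in limma there were 16 of the 48 (33.3%), close to the 30.8% of all tested genes.

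**Figure D2:**
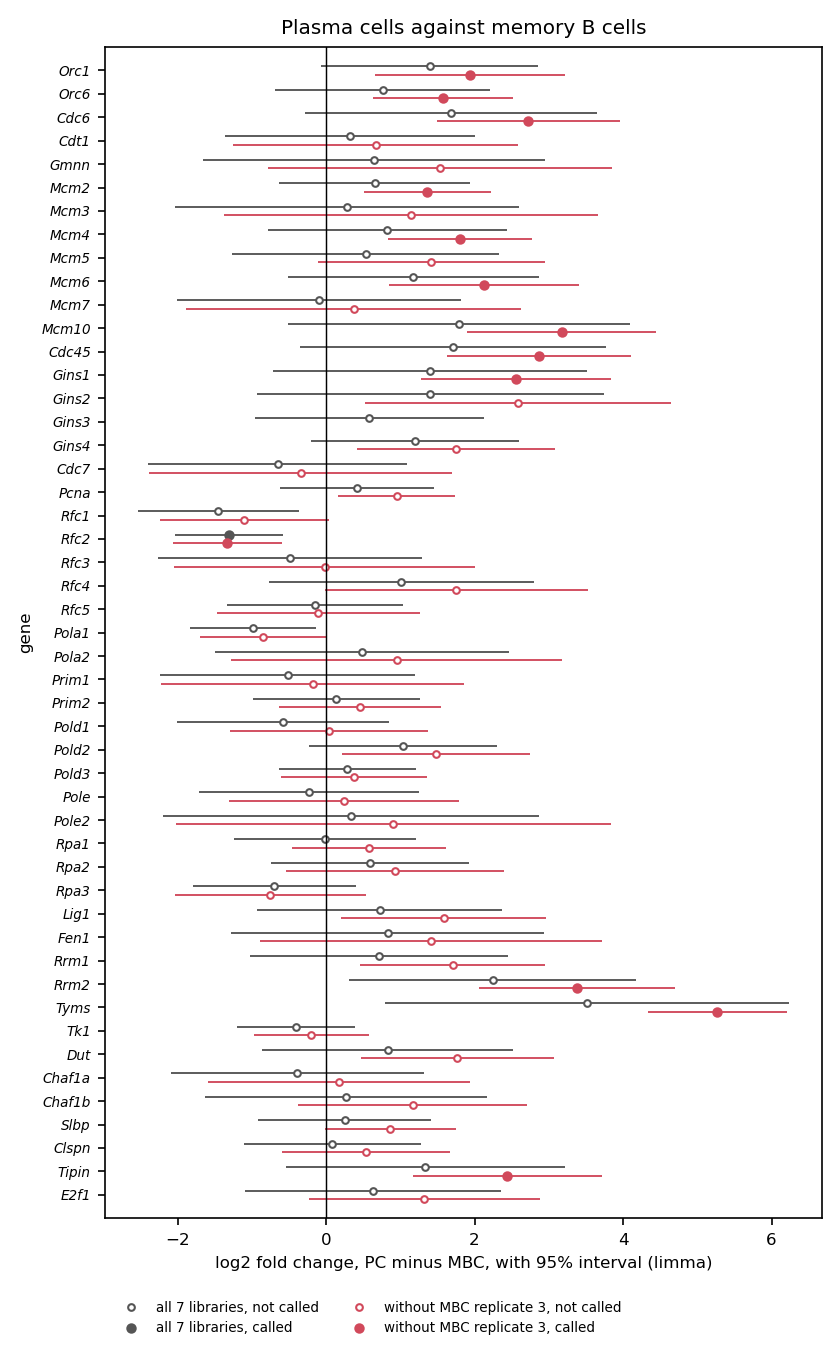
Log2 fold change of each gene, PC minus MBC on log2(scaled TPM + 1), with its 95% interval, from limma with all 7 libraries (grey) and without MBC replicate 3 (red). Filled points were called: 1 gene (Rfc2) in grey and 13 in red, of which 12 lie to the right of 0.

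Among the 5 origin licensing genes, CDC6, the loader of the helicase, had the largest log2 fold change of its role, and geminin, the inhibitor of reloading, the highest level. Cdc6 was at 0.0165, 0.108 and 11.1 scaled TPM in MBCs and at 3.35, 10.3, 7.42 and 7.33 in PCs. The libraries of MBC replicates 1 and 2 were under the floor, while MBC replicate 3 was above all PCs. For Cdc6 the log2 fold change was 1.68 (SE 0.88, limma adjusted p = 0.28), and 2.73 (SE 0.53, limma adjusted p = 0.0109) without MBC replicate 3, a fitted value that depends on the offset of 1 for a gene under the floor. Gmnn was at 0, 18.9 and 31.5 scaled TPM in MBCs and 12.7, 14.3, 12.4 and 11 in PCs. The PC libraries held nearly the same level, and the MBC libraries lay on both sides of it. The Gmnn log2 fold change of 0.65 with all libraries (SE 1.03, limma adjusted p = 0.746) turned to -0.92 without MBC replicate 1 and to -0.33 with TPM as deposited. Of the other licensing genes, Orc1 and Orc6, subunits of the origin recognition complex, were lower in MBC replicates 1 and 2 than in all PCs, and Cdt1 ranged from 1.27 to 15.3 scaled TPM within PCs.

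Next in order, the MCM2-7 proteins form a ring of 6 different subunits that unwinds the template. Mcm3 was at 4.48, 101.5 and 145 scaled TPM in MBCs and at 19.6, 58.8, 69.2 and 89.4 in PCs, the highest mean level per length among the subunits. MBC replicate 1 was below and MBC replicates 2 and 3 were above all PCs. For Mcm3 the log2 fold change was 0.28 (SE 1.03, limma adjusted p = 0.895), -1.23 without MBC replicate 1 and -0.98 with TPM as deposited. Mcm6 was at 5.82, 26.3 and 99.4 scaled TPM in MBCs and 42.2, 59.4, 76.5 and 62.6 in PCs. PCs lay between MBC replicate 2 and MBC replicate 3. For Mcm6 the log2 fold change was 1.175 (SE 0.75, limma adjusted p = 0.378) with all libraries, -0.10 with TPM as deposited, and 2.12 (SE 0.55, limma adjusted p = 0.0299) without MBC replicate 3.

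The spread within the hexamer was alike in PCs and MBC replicate 3, and differed in MBC replicates 1 and 2. The most abundant subunit was 4.27, 5.05, 5.79 and 5.29 times the least abundant in PC replicates 1 to 4 and 4.35 times in MBC replicate 3, and Mcm5 was the lowest subunit in all 5. In MBC replicate 2 the ratio was 92.5, between Mcm7 at 112 and Mcm5 at 1.21 scaled TPM. In MBC replicate 1 it was 2.38, and there Mcm5, at 10.7 scaled TPM, was the highest subunit and Mcm3 the lowest. An estimated 12.6 reads per kb lay behind Mcm5 in MBC replicate 2, against 1160 for Mcm7, so the split within the hexamer was larger than counting error. The exons of Mcm7 overlap those of Ap4m1, Cops6 and 2 microRNA genes, which makes its own level uncertain.

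**Figure D3:**
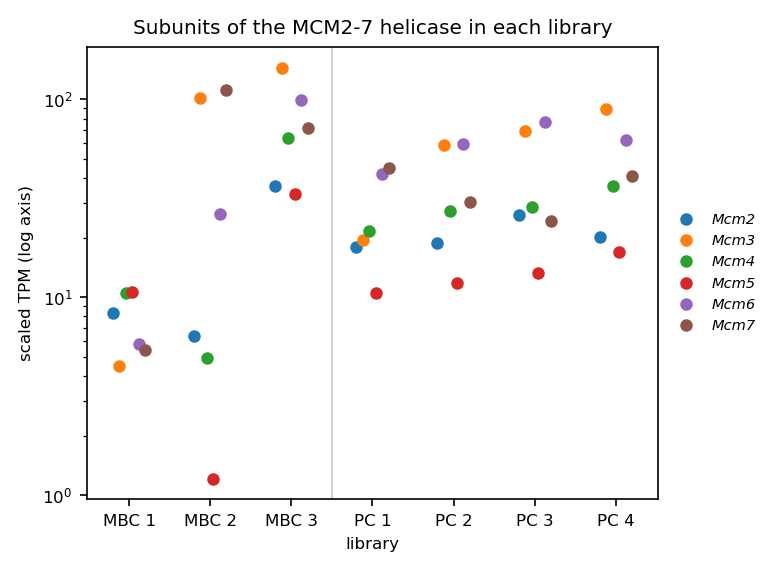
Scaled TPM (log axis) of the 6 subunit genes of the MCM2-7 helicase in each library, 1 point per gene. Mcm5 is the lowest point in MBC replicate 3 and in all 4 PC libraries, while in MBC replicate 2 the points spread from 1.21 to 112.

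Helicase activation was covered by 7 genes: GINS, CDC45 and MCM10 turn the loaded ring into a moving helicase, and CDC7 is the kinase that starts the step. Gins2 was at 11.8, 1.54 and 69.3 scaled TPM in MBCs and at 8.71, 52.6, 51.5 and 53.5 in PCs. PC replicate 1 stood apart from the other PC libraries, which held almost equal levels. The log2 fold change was 1.40 (SE 1.04, limma adjusted p = 0.451). Mcm10 was at 1.03, 0.256 and 33.4 scaled TPM in MBCs and 12.2, 12.9, 9.67 and 27.4 in PCs. MBC replicate 3 was the highest library and MBC replicate 2 was under its floor. Mcm10 had a log2 fold change of 1.79 with all libraries (SE 1.03, limma adjusted p = 0.321), and of 3.17 (SE 0.55, limma adjusted p = 0.00694) without MBC replicate 3. Cdc45 was at 0.741, 0 and 17.3 scaled TPM in MBCs and 5.27 to 12.5 in PCs, and Gins1 at 0, 0 and 13.7 in MBCs and 2.29 to 7.91 in PCs. Cdc7 ran the other way between the low MBC libraries, with 26.4 scaled TPM in MBC replicate 1, the highest of the 7, and 1.78 in MBC replicate 2, the lowest.

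In the clamp and clamp loader group, PCNA, the sliding clamp that tethers the polymerases, had the highest mean level per length of the 49 genes. Pcna was at 50.3, 71.9 and 188 scaled TPM in MBCs and at 91.2, 130, 100 and 161 in PCs. The level was below all PCs in MBC replicates 1 and 2 and above them in MBC replicate 3. The log2 fold change of 0.41 with all libraries (SE 0.46, limma adjusted p = 0.635) was -0.01 without MBC replicate 1 and -0.90 with TPM as deposited. The pseudogene Pcna-ps2, which could share reads with Pcna, was at 0.222 to 7.02 scaled TPM, and Pcna-ps1 was listed at 0 throughout. Rfc1, the large subunit of the loader, was at 40.4, 97.5 and 131 scaled TPM in MBCs and 44.2, 22.8, 18.9 and 35.7 in PCs. PC replicate 1 overlapped MBC replicate 1, and the other PC libraries were below all MBCs. Rfc1 had a log2 fold change of -1.45 with all libraries (SE 0.48, limma adjusted p = 0.103) and passed the threshold at -1.96 (limma adjusted p = 0.0317) without MBC replicate 1 and at -2.75 (limma adjusted p = 0.00444) with TPM as deposited. The loader subunits Rfc3 and Rfc4 showed the MBC libraries apart, with Rfc3 at 2.57 and 42.2 and Rfc4 at 18.5 and 2.18 scaled TPM in MBC replicates 1 and 2. The highest loader subunit was 24.3, 44.7 and 8.29 times the lowest in the MBC libraries and 2.65 to 4.77 times in PCs.

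Of the 9 polymerase and primase genes, Prim1, the catalytic subunit of primase, had the highest mean level of the role and Pold2, an accessory subunit of polymerase delta, the largest log2 fold change. Prim1 was at 5.01, 43.3 and 32 scaled TPM in MBCs and at 4.47, 17, 23.8 and 16.6 in PCs. MBC replicate 1 and PC replicate 1 were low together, so the groups overlapped. For Prim1 the log2 fold change was -0.52 (SE 0.77, limma adjusted p = 0.728), and 0.0046 without MBC replicate 2. Pold2 was at 3.95, 15.1 and 22.3 scaled TPM in MBCs and 16.6, 22, 28.2 and 33.5 in PCs. Only MBC replicate 3 reached the PC range. Pold2 had a log2 fold change of 1.04 with all libraries (SE 0.56, limma adjusted p = 0.297), and of -0.19 with TPM as deposited. Pola1, the catalytic subunit of polymerase alpha, was with Rfc2 1 of 2 genes in which all 3 MBC libraries were above all PCs, at 20.3, 20.9 and 27.1 scaled TPM in MBCs and 9.12 to 13.6 in PCs, but it was not called (-0.98 on the log2 scale, SE 0.38, limma adjusted p = 0.15). Pole, the catalytic subunit of polymerase epsilon, was at 9.29, 3.17 and 16.7 scaled TPM in MBCs and 5.74, 4.46, 17.1 and 4.48 in PCs. Within PCs, replicate 3 was high and the other libraries lay close together. The log2 fold change of Pole was -0.23 (SE 0.66, limma adjusted p = 0.864), and it was positive, at 0.24, without MBC replicate 3.

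Single-strand binding and fragment joining were covered by 3 and 2 genes. RPA, a trimer, coats the exposed single strand. Rpa3, its smallest subunit, was at 24.2, 96.7 and 42.9 scaled TPM in MBCs and 21, 30.3, 25.3 and 40.5 in PCs. MBC replicate 2 was far above the rest, and MBC replicate 1 was inside the PC range. For Rpa3 the log2 fold change was -0.70 (SE 0.49, limma adjusted p = 0.421), and -1.98 (limma adjusted p = 0.0137) with TPM as deposited. Lig1, the ligase that seals the fragments, was at 7.03, 36.5 and 106 scaled TPM in MBCs and 53.5, 35.1, 63.8 and 57.9 in PCs. PCs spanned a narrower range than MBCs, and MBC replicate 2 was inside it. Lig1 had a log2 fold change of 0.72 with all libraries (SE 0.74, limma adjusted p = 0.597), -0.29 without MBC replicate 1 and -0.56 with TPM as deposited. Fen1, the flap nuclease that trims the fragments, was at 0, 16.7 and 15.5 scaled TPM in MBCs and 6.59, 12.9, 12.4 and 12.6 in PCs. It was listed at 0 in MBC replicate 1 and was above all PCs in the other MBC libraries. The log2 fold change of Fen1 was 0.83 (SE 0.94, limma adjusted p = 0.64), -0.55 without MBC replicate 1 and -0.13 with TPM as deposited.

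Among the 5 genes of deoxynucleotide supply was Tyms, the gene in which MBC replicates 1 and 2 lay farthest below the PC mean of all 49. Tyms, the enzyme that makes thymidylate, was at 0.0604, 0 and 53.1 scaled TPM in MBCs and at 31.2, 45.6, 43.2 and 56 in PCs. MBC replicates 1 and 2 were under the floor, and MBC replicate 3 was inside the PC range. The log2 fold change was 3.52 (SE 1.22, limma adjusted p = 0.115) with all libraries and 5.27 (SE 0.41, limma adjusted p = 0.000208) without MBC replicate 3, where its size depends on the offset. Rrm2, the small subunit of ribonucleotide reductase that is made in S phase, was at 15.6, 2.84 and 88.5 scaled TPM in MBCs and 58.4, 102, 82.7 and 99.9 in PCs. MBC replicate 3 again lay within PCs. Rrm2 had a log2 fold change of 2.25 with all libraries (SE 0.86, limma adjusted p = 0.148), and of 3.38 (SE 0.57, limma adjusted p = 0.00632) without MBC replicate 3.

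The subunits of ribonucleotide reductase also differed in their ratio. Rrm2 was 2.9 to 3.62 times Rrm1, the large subunit, per length in PCs and 1.32 times in MBC replicate 3, so MBC replicate 3 had the PC level of Rrm2 and, with 67.3 scaled TPM against 18.8 to 33.9, more Rrm1 than any PC library. In MBC replicate 1 the ratio was 1.07, and in MBC replicate 2 Rrm1 was the higher by 1.25 times. Tk1, the thymidine salvage kinase, was at 29.4, 42.2 and 54.6 scaled TPM in MBCs and 26 to 38.1 in PCs. Its value was thus not low in MBC replicates 1 and 2, where Tyms was at or near 0. The exons of Tk1 overlap those of Afmid, which makes its own level uncertain, and Tyms has a named pseudogene, Tyms-ps. Dut, which removes dUTP from the pool, was at 5.85, 18.8 and 83 in MBCs and 22.9 to 68 in PCs.

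The last roles were chromatin assembly, fork protection and transcription. Slbp, the binding protein of histone mRNA, was at 35.9, 16.3 and 90.9 scaled TPM in MBCs and at 38.9, 44.3, 44.9 and 53.9 in PCs. Around the narrow PC range, MBC replicates 1 and 2 were below and MBC replicate 3 above. The log2 fold change of 0.25 with all libraries (SE 0.52, limma adjusted p = 0.811) was -0.36 without MBC replicate 2, -1.04 with TPM as deposited and -0.03 with immunoglobulin genes removed. Chaf1a, a subunit of the chromatin assembly factor CAF-1, was at 1.27, 7.81 and 13.6 scaled TPM in MBCs and 1.37, 3.28, 8.82 and 5.65 in PCs. The groups overlapped over nearly the whole range. Chaf1a had a log2 fold change of -0.39 with all libraries (SE 0.76, limma adjusted p = 0.798), and of 0.17 without MBC replicate 3. Tipin, which with Timeless stabilizes stalled forks, was at 8.24, 3.3 and 64.7 scaled TPM in MBCs and 17.9, 49.4, 28.2 and 51.7 in PCs. PCs lay above MBC replicates 1 and 2 and below MBC replicate 3. For Tipin the log2 fold change was 1.34 (SE 0.84, limma adjusted p = 0.365), and 2.44 (SE 0.55, limma adjusted p = 0.0184) without MBC replicate 3. E2f1, an activator of G1/S transcription, was low throughout, at 1.43, 0.0741 and 6.82 scaled TPM in MBCs and 0.755, 4.47, 3.53 and 6.27 in PCs. PC replicate 1 and MBC replicates 1 and 2 were low together. E2f1 had a log2 fold change of 0.63 with all libraries (SE 0.77, limma adjusted p = 0.667), -0.07 without MBC replicate 2 and -0.22 with TPM as deposited.

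MBC replicate 3 carried the high end of most of the 49 genes. It was the highest of the 7 libraries in 29 of 49 genes, where it was the highest in 10.3% of all tested genes, and it was above all PC libraries in 37 of 49, where 23.7% of all tested genes were. The remaining 12 were inside the PC range and none was below all PCs. Relative to the mean of the 4 PC libraries on the log2(scaled TPM + 1) scale, the median of the 49 genes was 0.93 in MBC replicate 3, with 45 of 49 above 0, and the median of all tested genes was 0.01. In MBC replicates 1 and 2 the median was -1.33 and -0.90, with 5 and 18 of 49 above 0, beside -0.15 and -0.32 over all tested genes. MBC replicate 3 was the highest library in 44, 40 and 38 of the 49 with TPM as deposited, with immunoglobulin genes removed and with quantile normalization, where 33.5, 21.2 and 16.3% of all tested genes were. These are descriptions of 1 library, with no test. The sum of the mitotic genes Mki67, Top2a, Cdk1, Ccnb1, Aurkb and Birc5 was also highest in MBC replicate 3. It was 115, 142 and 761 scaled TPM in the MBC libraries, and 388 to 524 in PCs. In MBC replicate 2 the mitotic sum was thus below all PCs. The sum of the replication genes there, at 1057, was above that of PC replicate 1, at 929. The GC B cell markers were also highest in MBC replicate 3. Unlike that of the mitotic genes, their sum was lower in PCs (65 to 125 scaled TPM) than in MBC replicates 1 and 2 (236 and 257). That contrast rests on Mybl1, at 165 and 197 in these MBC libraries and 25.8 to 69.3 in PCs. In each other marker of the list, MBC replicate 1 or 2 was inside or below the PC range. Gcsam, for example, was at 0.0274 and 7.41 in them and 6.11 to 19.1 in PCs. The part of the GC B cell markers in the level of the replication genes was not tested.

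**Figure D4:**
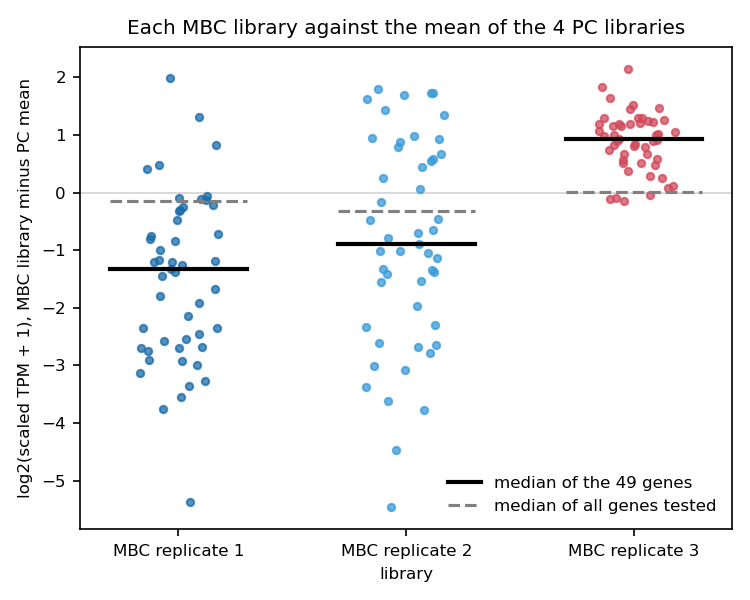
Difference of each of the 49 genes between 1 MBC library and the mean of the 4 PC libraries, in log2(scaled TPM + 1), 1 point per gene. The black bars (median of the 49) are at -1.33, -0.90 and 0.93, and the dashed grey bars (median of all tested genes) at -0.15, -0.32 and 0.01.

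MBC replicates 1 and 2 were below all PC libraries in 32 and 29 of the 49 genes (65.3 and 59.2%), and differed widely in others. Of all tested genes, 38.8 and 42.8% were below all PC libraries in MBC replicates 1 and 2. Both were below all PC libraries in 19 of 49 genes, where 25.6% of all tested genes were, and both above all PCs in 2 (Rfc2 and Pola1), where 18.1% were. With MBC replicate 3 included, 0 of 49 genes had all MBC libraries below all PCs, where 13% of all tested genes did, and 2 of 49 had them all above, where 8.68% did. With TPM as deposited, MBC replicates 1 and 2 were below all PCs in 9 of 49 (13.7% of all tested genes). The levels of MBC replicates 1 and 2 differed over 4-fold, on scaled TPM + 1, in 17 of 49 genes (34.7%), beside 24.1% of all tested genes. The median absolute log2 difference between them was 1.42 over the 49 genes and 1.01 over all tested genes, while the median range of the 4 PC libraries was 0.97 and 1.05. MBC replicate 2 was the higher in 11 of the 17, among them Gmnn, Mcm3, Mcm7, Rfc3, Prim1, Lig1 and Fen1, and MBC replicate 1 in the other 6, among them Mcm5, Gins2, Cdc7, Rfc4 and Rrm2. Across the 49 genes, which are not independent and share each library's depth, Pearson's r on the log2(scaled TPM + 1) scale came to 0.417 between MBC replicates 1 and 2, 0.808 to 0.896 between MBC replicate 3 and PC libraries, and 0.761 to 0.956 among PC libraries. Over all tested genes the same values were 0.675, 0.7 to 0.777 and 0.85 to 0.957. The erythroid RNA of MBC replicate 2 and the lower depth of both libraries go along with this split, and their part in it was not tested.

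With TPM as deposited 0 of 49 genes were called higher in PCs (4.08% of all tested genes were) and 5 were called lower, Rfc1, Rfc2, Pola1, Rpa3 and Tk1 (26.1% of all tested genes were). In that fit the median of all tested genes moved to -0.91. Fold changes were positive in 9 of the 49 genes, beside 2810 of all 11573 tested genes. The 5 genes thus stand within a shift of the whole table.

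Other genes of the replication pathway were taken from lists outside the 49. Of 16 other licensing and fork genes 0 were called with all libraries by limma, with 0 at an unadjusted p under 0.05. Orc5, a subunit of the origin recognition complex, had the largest change among them, at 1.44, 0.903 and 6.78 scaled TPM in MBCs and 7.57, 4.8, 6.35 and 5.79 in PCs (log2 fold change 1.09, limma adjusted p = 0.299). Orc5 was low in MBC replicates 1 and 2 and at the PC level in MBC replicate 3, and without MBC replicate 3 it passed the threshold (1.66, limma adjusted p = 0.0365). Of 12 other polymerase, clamp and primer removal genes 1 was called lower, Pold4, the smallest subunit of polymerase delta. Pold4 was at 105, 47.3 and 108 scaled TPM in MBCs and 4.75, 21.7, 7.53 and 19.2 in PCs, with no overlap (log2 fold change -2.75, SE 0.57, limma adjusted p = 0.0162). It was not called without MBC replicate 1, without PC replicate 3 or without the filter on low values. When any other library was left out Pold4 stayed called. The large subunits Pold1 and Pold3 had log2 fold changes of -0.58 and 0.29 and were not called (limma adjusted p = 0.627 and 0.719).

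Of 12 other deoxynucleotide supply genes 1 was called higher, Nme2, a nucleoside diphosphate kinase. It was at 11.1, 15.7 and 76.7 scaled TPM in MBCs and 109, 206, 101.0 and 174 in PCs, again with no overlap (log2 fold change 2.51, SE 0.61, limma adjusted p = 0.0342). MBC replicate 3 was the nearest of the MBC libraries to PCs. Leaving out any 1 library except MBC replicate 3 moved its adjusted p to between 0.066 and 0.113. Of 20 G1/S control genes 0 were called with all libraries by limma, with 1 at an unadjusted p under 0.05. E2f8, a repressor of E2F targets late in S phase, was at 0.67, 1.3 and 42 scaled TPM in MBCs and 15.7, 21.9, 24.5 and 27.3 in PCs. MBC replicate 3 was above all PCs and the other MBC libraries were below them, and the log2 fold change was 2.06 (limma adjusted p = 0.239), and 3.47 (limma adjusted p = 0.00183) without MBC replicate 3. Without MBC replicate 3 the counts called higher and lower were 1 and 1 of 15 licensing and fork genes, 3 and 1 of 12 polymerase genes, 2 and 0 of 12 deoxynucleotide genes and 4 and 0 of 20 G1/S genes, read against the 15.1% and 8.2% of all tested genes given above.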

How the data were processed

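The deposited values are TPM, rounded to 2 decimals, for 48795 genes in 7 libraries; the submitters' processing notes name STAR 2.5.2a, RSEM 1.3.0, DESeq2 1.18.1 and GRCm38, without the role of each, and the annotation release is not given in the sources used here. Symbols came from GENCODE M21 by gene ID (48349 matched). Scaled TPM are the deposited TPM over a size factor per library, the median ratio to the genes' geometric means (9305 genes above 0 throughout). A filter of 1 deposited TPM in 3 or more libraries kept 11573 genes, to which limma 3.58.1 (R 4.3.3; lmFit, eBayes with trend, no covariate) was applied as log2(scaled TPM + 1). This scale understates the change of low genes. The procedure was tested on simulated data first. Read depth was estimated, after the values had been seen, from the spacing of low TPM values of genes with 1 transcript (75.9 to 83.2% of values within 0.15 of a whole read, 30% by coincidence). Exon overlaps were read from GENCODE M21 and affect 16 of the 49 genes, whose values are uncertain. Python 3.11.15, pandas 2.3.3 and numpy 2.4.6 were used.

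Groups and replicate numbers follow the sample descriptions. The titles carry 4 codes, 3 of them in both groups, and the labels do not say what these mark. The 49 genes, their roles, the pathway and marker lists and the tests were chosen with earlier results of these data known. Genes given in every library were those called, the highest and the most changed of each role or list, and those with a far PC library; Orc1, Orc6, Cdt1, Cdc45, Gins1, Cdc7, Mcm5, Mcm7, Rfc3, Rfc4, Pola1, Pold1, Pold3, Rrm1, Tk1, Dut and Lat2 were added after their values were seen. Alternatives were an offset of 0.1, no filter, TPM as deposited, immunoglobulin genes removed, quantile normalization, no trend, a block for the replicate number or the title code, the more frequent title prefix and each library left out. Protein sequences were not used here, and 2 listed markers are not reported here.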

Additional observations from a re-analysis of the deposited data

Results flagged for a closer look

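In each gene the lowest and the highest PC library were compared with the other PC libraries by Dixon's gap over range, which chance exceeds in about 1 of 20 groups. Of the 49 genes 3 exceeded it, where 2.45 would by chance. Gins2 was at 8.71 scaled TPM in PC replicate 1 and at 51.5 to 53.5 in the other PC libraries. Fen1 was at 6.59 in PC replicate 1 and at 12.4 to 12.9 in the others. Pole was at 17.1 in PC replicate 3 and at 4.46 to 5.74 in the others. MBCs, with 3 libraries, were not examined in this way.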

How the results depend on the processing

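The comparison is limited by 3 MBC libraries that differ from each other, by the lower depth of MBC replicates 1 and 2, by exon overlaps and by values deposited as TPM, for which no count test was run. The number of the 49 genes called higher in PCs was 0 in all alternatives except 12 without MBC replicate 3 and 6 in the more frequent title prefix (leaving out a library, 0 to 12). The number called lower was 1, and 5 with TPM as deposited, 0 without the mean-variance trend, 0 in the more frequent title prefix and 0 to 2 when a library was left out, the 2 (Rfc1 and Rfc3) without MBC replicate 1. For Rfc2 the adjusted p was 0.0727 without the trend and 0.0538 in that prefix. The median log2 fold change of the 49 turned from 0.53 to -0.61 with TPM as deposited, and ran from -0.0076 (without MBC replicate 1) to 1.16 (without MBC replicate 3) when a library was left out. For these results and those below, where no setting's construction shows it, the cause was not tested.

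Whether the libraries are paired is not known. Deviations from the group means of libraries with the same replicate number correlated at 0.11, -0.04 and -0.08, and with the same title code at 0.11, -0.00 and 0.22. These values cannot decide it, because libraries of unlike number or code were not compared. With the replicate number or the title code as a block, 0 of the 49 genes were called in either direction, and Rfc2 had an adjusted p of 0.21 and 0.155. The number block also left 0 calls among the other polymerase and among the other deoxynucleotide supply genes, where Pold4 and Nme2 had adjusted p-values of 0.0543 and 0.103.

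Calls in the 4 pathway lists (licensing and fork, polymerase, deoxynucleotide supply, G1/S) were 0, 1, 1 and 0. With TPM as deposited they were 6, 3, 2 and 1, all lower in PCs, where 26.1% of all tested genes were called lower. In the more frequent title prefix the calls were 2 for polymerase and 2 for G1/S genes. There 9.89% of all tested genes were called higher and 4.37% lower. Without the filter on low values the polymerase and deoxynucleotide calls were 0 and 0. The deoxynucleotide call was also 0 under quantile normalization, without the trend and when immunoglobulin genes were removed. When a library was left out the counts ran from 0 to 2, 0 to 4, 0 to 2 and 0 to 4. The upper ends were without MBC replicate 3, where 15.1% of all tested genes were called higher and 8.2% lower.

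Orders under other scalings were added after the data were seen. With TPM as deposited and with immunoglobulin genes removed, 6 and 4 of the 49 genes had MBC replicates 1 and 2 above all PCs (38.2 and 21% of all tested genes), and 6 and 4 had all 3 MBC libraries above them (34.3 and 14.4%). MBC replicates 1 and 2 were below all PCs in 9 genes, and MBC replicate 3 was highest in 44, with TPM as deposited.

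The sign of the log2 fold change turned with TPM as deposited in Gmnn (-0.33), Mcm3 (-0.98), Mcm6 (-0.10), Pcna (-0.90), Pold2 (-0.19), Lig1 (-0.56), Fen1 (-0.13), Slbp (-1.04) and E2f1 (-0.22), and with immunoglobulin genes removed in Slbp (-0.031). When a library was left out it ran, from the value without MBC replicate 1 to that without MBC replicate 3, from -0.92 to 1.53 in Gmnn, -1.23 to 1.14 in Mcm3, -0.0086 to 0.95 in Pcna and -0.29 to 1.58 in Lig1. Without MBC replicates 1 and 2 in turn it was -0.55 and 1.49 in Fen1 and -1.42 and 0.0046 in Prim1, without MBC replicates 2 and 3 -0.36 and 0.87 in Slbp, -0.067 and 1.32 in E2f1 and -0.82 and 0.24 in Pole, and without MBC replicates 1 and 3 -1.17 and 0.17 in Chaf1a. It also turned in the more frequent title prefix in Chaf1a (0.050) and Pole (0.41). None of these 12 genes was called with all libraries.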
